A study of Canis lupus familiaris with 18 samples.

Results

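Vascular smooth muscle cells (VSMCs) from the canine aorta were compared with VSMCs from the vena cava, 3 samples against 3, which are 6 of the 18 samples of the series. The members are set by their labels and by no measured value, as the samples given as vascular smooth muscle cell with aorta or vena_cava as the tissue. The cells came from the abdominal aorta and abdominal vena cava of healthy male dogs about a year old, taken as surplus from animals of unrelated pacemaker research, and the labels name no treatment. They were the fraction released by a long collagenase digestion of the minced vessel wall after the endothelial layer had been removed, and they were not sorted. All were grown in DMEM with fetal calf serum and taken for RNA at passage 3. The other 12 samples are VSMCs of the vena porta and canine primary endothelial cells (CaPECs) of all 3 vessels, 3 samples of each, with the CaPECs grown in an endothelial medium. The samples of each group are numbered 1, 2 and 3, and the column names of the VSMC libraries carry the numbers 1, 2 and 5 after ISO in both vessels.

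VSMCs form the muscular layer of the vessel wall, where they contract to set vessel tone and secrete the collagens, elastin and proteoglycans of the wall. The wall of the aorta is thick and built of elastic sheets that carry pulsatile pressure, whereas the wall of the vena cava is thin and carries low pressure. The muscle of different vessels also arises from different embryonic sources. In culture, VSMCs tend to lose contractile proteins and to turn to growth and matrix secretion. In such bulk samples, fewer cells of a type and less RNA per cell cannot be told apart.

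Polyadenylated RNA was sequenced, and the value of each gene is its raw read count, given by Ensembl identifier. None of the identifiers could be matched to a gene symbol here (0 of 24580), so genes are described by identifier, level and direction. For the same reason the smooth muscle identity in the labels could not be checked against marker genes. At the protein level, the paper reports staining of its VSMCs for alpha-smooth muscle actin and calponin, and none for endothelial markers. The total count was 10027682 to 12159123 in the aortic samples and 8050903 to 15746769 in the vena cava samples, with 10896 to 11631 genes at 10 counts or more. No replicates of a vessel were close enough to be repeats of 1 library. For each gene, the squared difference between replicates was divided by the variance expected from counting noise. The median of this ratio over genes was 3.12 to 6.83. Levels are given as CPM, the counts scaled to the library's total after TMM normalization, and all fold changes are the aorta relative to the vena cava on the log2 scale.

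Of the 11254 genes tested, 73 differed between aortic and vena cava VSMCs, 44 of them higher (0.391%) and 29 lower (0.258%) in the aorta (0.649% of the genes tested in all). The test was edgeR's quasi-likelihood test, with a Benjamini-Hochberg adjusted p-value under 0.05 and a log2 fold change beyond 0.4 in either direction. At an unadjusted p-value under 0.05 there were 1450 genes. The genes higher in the aorta had a median log2 fold change of 1.47, from 0.77 to 4.45, and 37 of the 44 exceeded 1. Those lower in the aorta had a median of -1.63, from -6.32 to -0.78, and 23 of the 29 were beyond -1. The lower genes included 4 beyond -4, against 1 gene above 4 among the higher ones. In 2 of the lower genes and 1 of the higher ones, every sample of the vessel with the lower level had at most 3 counts. Fold changes of such genes rest on few reads. The fold limit removed no gene, since all 73 with an adjusted p-value under 0.05 were beyond 0.4.

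When the replicate number entered the model as a block, so that the vessels were compared within each number, 682 genes differed (6.06%), of which 413 were higher (3.67%) and 269 lower (2.39%) in the aorta. All 73 genes of the fit without the block were among them, and they made up 10.7% of the 682. The median log2 fold change was 0.87 for the 413 higher genes and -0.96 for the 269 lower ones. Beyond 1 were 161 of the higher and 129 of the lower genes, and beyond 3 were 11 and 17. The biological coefficient of variation, which is the spread between samples left after counting noise, was 0.264 without the block and 0.172 with it. Within a vessel it was 0.264 in the aorta and 0.263 in the vena cava.

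The split into higher and lower genes depends on the scaling. With library size alone in place of TMM, the median log2 fold change of all genes moved from -0.02 to -0.20, a shift of -0.18. Of the genes called on that scale, 27 were then higher and 43 lower in the aorta without the block, and 258 were higher and 725 lower with it. Of these, 53 and 527 were also called with TMM. The directions given for genes with small fold changes are therefore relative to the TMM scale, on which the median gene lies near 0.

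**Figure D1:**
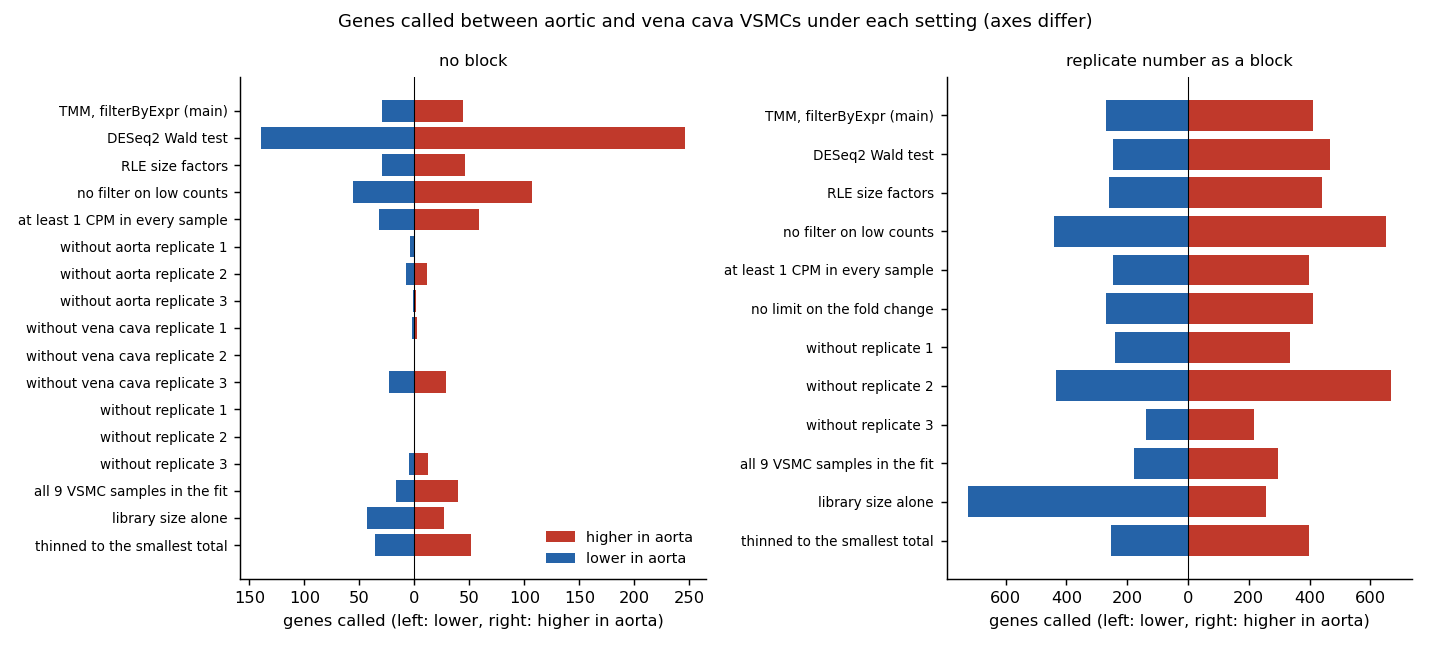
Number of genes called between aortic and vena cava VSMCs (x axis, genes, lower in the aorta to the left and higher to the right) under each setting (y axis), without the block on the left and with the replicate number as a block on the right. The main fits called 73 and 682 genes, most of them higher in the aorta, while scaling to library size alone put most of the calls on the lower side.

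Without the block, the number of calls fell whichever sample was left out, each time with 3 samples against 2. It was 52 without vena cava 3 and 19 without aorta 2. Without aorta 1 the test called 4 genes, without aorta 3 it called 2, and without vena cava 1 it called 4. Without vena cava 2, edgeR called 0 genes, with 1149 at an unadjusted p-value under 0.05. That unadjusted number ranged from 981 without aorta 1 to 1640 without aorta 2, so it did not always fall with the calls, and the part of the smaller sample number was not tested. With the block, 574 genes were called without number 1, 1104 without number 2 and 354 without number 3, and between 58.4% and 61.3% of the calls were higher in the aorta each time.

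The 4 leading genes were chosen among those whose aortic and vena cava samples did not overlap, so their lack of overlap is no result. The first of those higher in the aorta was ENSCAFG00000002500. It was at 365.1, 243.6 and 323.6 CPM in aorta 1, 2 and 3, and at 78.3, 88.0 and 98.3 CPM in vena cava 1, 2 and 3. The lowest aortic sample was thus above the highest vena cava sample, with 310.8 ± 61.8 against 88.2 ± 10.01 CPM (SD, n = 3 each). The log2 fold change was 1.80 (standard error 0.18, adjusted p = 0.0133 from edgeR), and it was 1.79 with the block (standard error 0.15, adjusted p = 0.000215 from edgeR).

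ENSCAFG00000016116, a gene of lower level, was at 21.8, 22.2 and 20.04 CPM in the aortic samples and at 4.81, 5.81 and 5.97 CPM in the vena cava samples. The aortic samples were within 3 CPM of each other. Its log2 fold change was 1.94 (standard error 0.20, adjusted p = 0.0141 from edgeR), and 1.94 with the block (standard error 0.22, adjusted p = 0.000722 from edgeR).

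ENSCAFG00000029087 had the smallest p-value of all genes tested without the block. It was at 0.62, 0.53 and 2.32 CPM in the aortic samples, which are 6, 5 and 19 counts, and at 79.1, 57.7 and 53.0 CPM in the vena cava samples, which are 1234, 576 and 373 counts. The gene was thus close to undetected in aortic VSMCs and clearly read in every vena cava sample. It passed the filter on low counts only through its vena cava samples. Where at least 1 CPM was required in every sample, it was not tested. Its log2 fold change was -5.83 (standard error 0.45, adjusted p = 0.00964 from edgeR), and -5.84 with the block (standard error 0.36, adjusted p = 4.2e-05 from edgeR).

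ENSCAFG00000018598 was at 18.7, 9.46 and 16.3 CPM in the aortic samples and at 144.0, 99.9 and 96.2 CPM in the vena cava samples. Here the gene was read in both vessels. The log2 fold change was -2.96 (standard error 0.27, adjusted p = 0.0133 from edgeR), and -2.98 with the block (standard error 0.17, adjusted p = 3.2e-05 from edgeR).

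**Figure D2:**
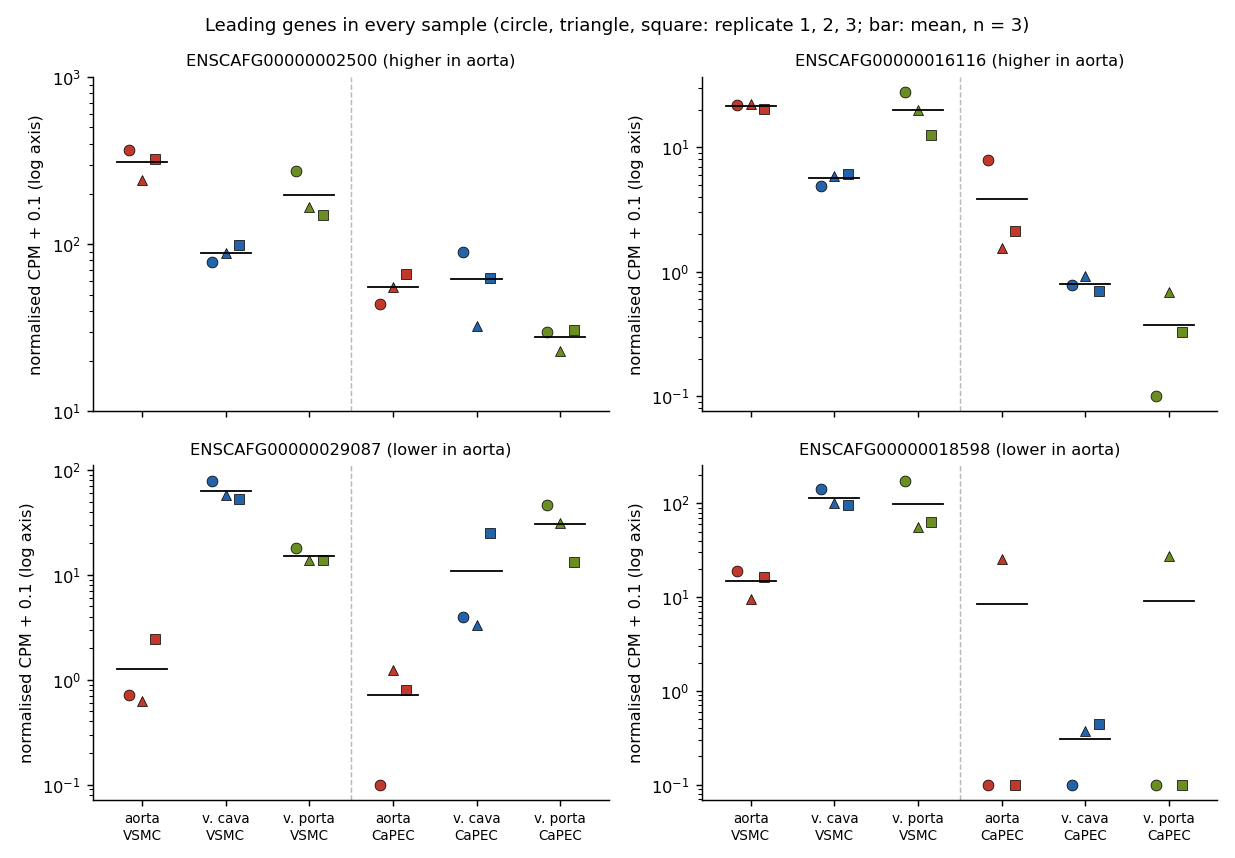
Normalised CPM plus 0.1 (y axis, log scale) of the 4 leading genes in all 18 samples, by vessel and cell type (x axis), with replicates 1, 2 and 3 as circles, triangles and squares and the mean of 3 samples as a bar. The genes were chosen so that aortic and vena cava VSMC samples do not overlap, and the CaPEC samples of ENSCAFG00000018598 ranged from 0 to 27.1 CPM.

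Each same-numbered pair of samples gives its own difference between aorta and vena cava. For ENSCAFG00000002500 it was 2.19, 1.47 and 1.69 in pairs 1, 2 and 3, and for ENSCAFG00000016116 it was 2.11, 1.90 and 1.68 (log2 CPM). For ENSCAFG00000029087 the differences were -6.62, -6.31 and -4.43, with the smallest in pair 3, and for ENSCAFG00000018598 they were -2.96, -3.37 and -2.58. The sign of these differences was fixed by the choice of genes without overlap, and only their size is a description of the pairs.

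Over the 44 genes higher in the aorta, the median difference was 1.70 in pair 1, 1.35 in pair 2 and 1.19 in pair 3. Over the 29 lower ones it was -1.53, -1.44 and -1.45. The calls were made on the same samples, so their direction in the pairs is no independent result. It was the same in the 3 pairs for all 73 genes, for which the lack of overlap fixes it, and for 413 of the 413 higher and 268 of the 269 lower genes of the fit with the block. The numbers themselves differed in 598 genes with the vessel in the model (5.31%), 128 of which were among the 682. Among all genes tested, 42.2% had the same direction in the 3 pairs. Across all 11254 genes, the differences of pairs 1 and 2 had a correlation of 0.40, those of pairs 1 and 3 of 0.45 and those of pairs 2 and 3 of 0.34, where the pairs share no sample and genes are not independent.

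The genes called with the block only, 369 higher and 240 lower in the aorta, had smaller median fold changes, of 0.82 and -0.89. In 273 of the 369 and 185 of the 240, the aortic and vena cava samples did not overlap, a share that the call on these same samples raises. Among all genes tested, 19.1% did not overlap, 9.29% with the aorta higher and 9.86% with the aorta lower. In the remaining genes the ranges of the vessels overlapped.

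**Figure D3:**
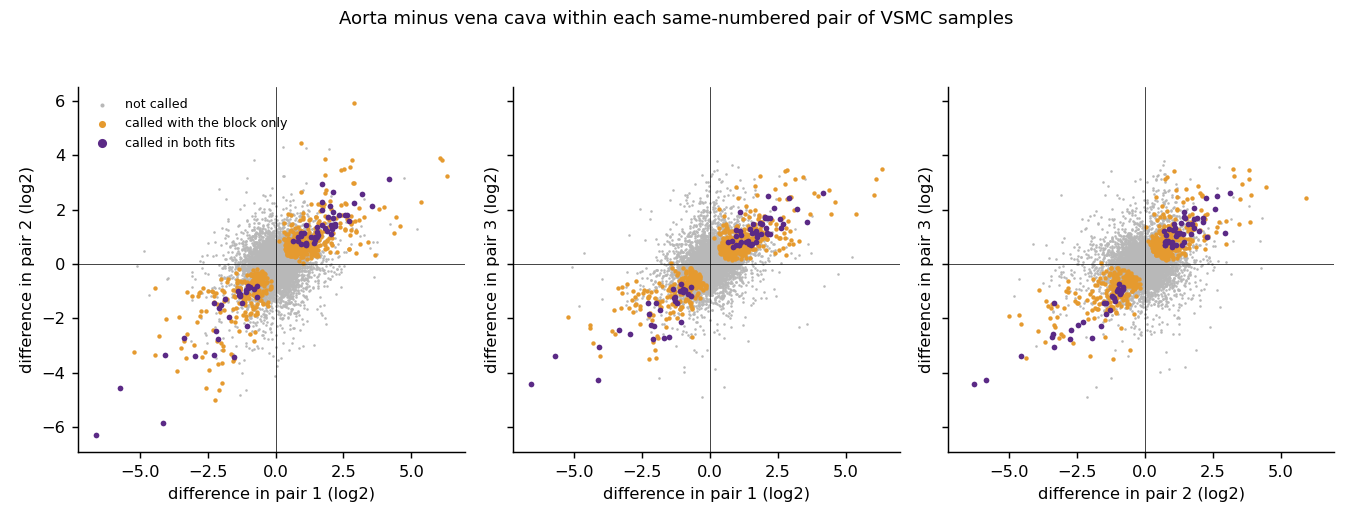
Difference between aorta and vena cava within one same-numbered pair (x axis, log2) against that within another pair (y axis, log2), 1 panel for each choice of 2 pairs, over 11254 genes. Genes called in both fits had larger median fold changes than genes called with the block only, and the genes not called form a cloud around 0. Genes called with the block only also lie far out. With the block, 11 higher and 17 lower genes were beyond a log2 fold change of 3, against 1 and 5 without it.

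The level of a gene went along with its chance of being called and with its direction. With the block, 2.398% of the genes in the decile of lowest level were called and 14.7% of those in the highest, where the median level was 7.86 on the log2 CPM scale. In the highest decile 128 genes were higher and 38 lower in the aorta, whereas in the lowest decile 13 were higher and 14 lower. The median log2 fold change without the block rose from -0.09 in the lowest to 0.09 in the highest decile.

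Among the 100 genes with the highest mean CPM, 77 had a log2 fold change above 0, with a median of 0.35. The median was 0.47 in pair 1, 0.28 in pair 2 and 0.30 in pair 3, and 77, 71 and 83 of the 100 genes were higher in the aortic sample of the pair. With library size alone, 71 of the 100 had a log2 fold change above 0. With the block, 27 of the 100 genes were called, 26 upward and 1 downward in the aorta. On the library size scale 20 were called higher and 5 lower. Without the block, 1 of the 100 was called, and it was higher in the aorta.

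The genes called with the block and higher in the aorta took 20.7%, 16.3% and 19.1% of all counts in aorta 1, 2 and 3, and 10.6%, 10.02% and 11.4% in vena cava 1, 2 and 3. Those of them among the 100 most abundant genes accounted for 14.3%, 10.48% and 13.3% in the aortic samples and for 6.92%, 6.33% and 7.60% in the vena cava samples. The lower genes took 1.46% to 1.91% of the counts in the aortic samples and 3.09% to 3.95% in the vena cava samples. These shares describe genes chosen for their difference and were not tested. The 100 most abundant genes of each library held 48.0%, 42.7% and 48.1% of its counts in the aorta and 40.7%, 38.9% and 45.4% in the vena cava. The groups overlapped in this share (46.3 ± 3.13 against 41.6 ± 3.33%, SD, n = 3, two-sided exact permutation test p = 0.2, where 0.1 is the smallest p allowed), although it was higher in the aortic sample of each pair, by 7.34, 3.75 and 2.78 percentage points.

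**Figure D4:**
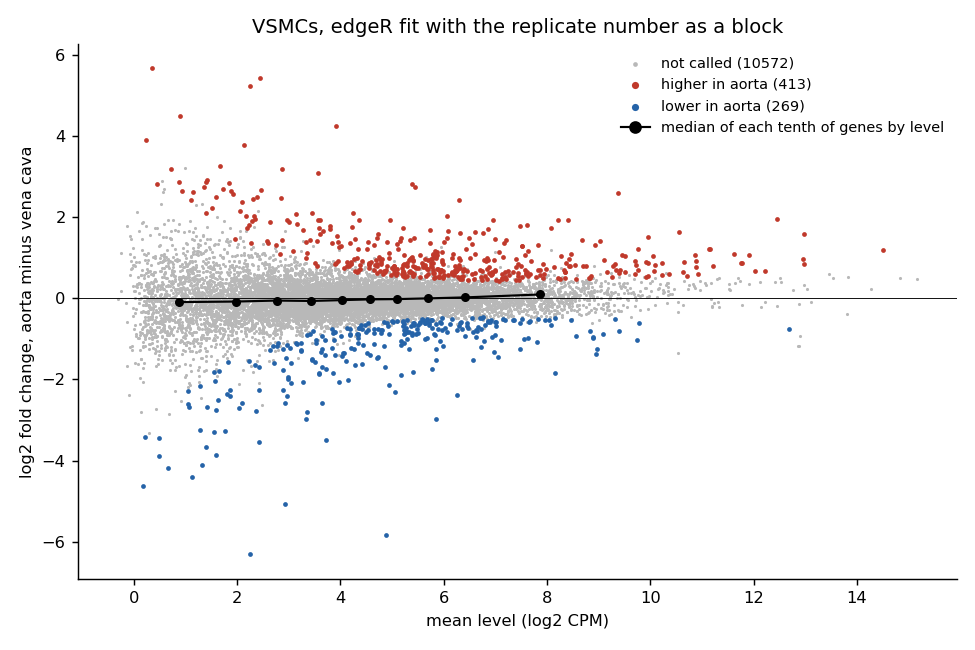
Log2 fold change of the aorta relative to the vena cava with the replicate number as a block (y axis) against the mean level (x axis, log2 CPM) of the 11254 genes tested in VSMCs. Genes called higher in the aorta (413) are frequent at high levels, and the black line, the median of each decile of level, rises slightly from left to right.

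The vena porta is the other vein from which VSMCs were taken, and its 3 samples were not used to choose the 73 genes. For the 44 genes higher in the aorta, the median level was 6.80 in the aorta, 5.95 in the vena porta and 5.36 in the vena cava (log2 CPM). For the 29 genes lower in the aorta it was 3.85, 5.03 and 5.91 in the same order. The vena porta mean lay between those of the other vessels in 41 of the 44 and 26 of the 29 genes, and was nearer to the vena cava in 31 and 13 of them. Over all genes tested, it lay between them in 44.5% and nearer to the vena cava in 54.1%. The 73 genes were chosen for the gap between those vessels, so these counts are a description only.

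In a model of all 9 VSMC samples with the block, the aorta differed from the vena porta in 131 genes (1.14% of the 11484 tested) and the vena porta from the vena cava in 57 (0.496%). The aorta and the vena cava differed in 476 genes in that model (4.14%). These 3 comparisons share samples, and they use the aortic and vena cava samples by which the 73 genes were chosen. Of the 44 genes higher in the aorta, 14 were called higher or lower against the vena porta and 7 between the vena porta and the vena cava, and of the 29 lower ones, 7 and 8 were.

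The leading genes differed in where the vena porta lay. ENSCAFG00000016116 was at 27.5, 19.9 and 12.5 CPM in vena porta VSMCs, around the aortic values, and differed from the vena cava (log2 fold change 1.83, adjusted p = 0.017 from edgeR with the block) with a log2 difference of 0.13 between aorta and vena porta (adjusted p = 0.888 from edgeR). In contrast, ENSCAFG00000018598 was at 174.8, 55.6 and 63.1 CPM, around the vena cava values, and the aorta was lower than the vena porta by a log2 fold change of -2.61 (adjusted p = 0.00206 from edgeR). For ENSCAFG00000002500 the vena porta was at 273.3, 166.0 and 149.8 CPM, above the vena cava (log2 fold change 1.11, adjusted p = 0.0415 from edgeR with the block), while the aorta minus the vena porta was 0.66 (adjusted p = 0.161 from edgeR). ENSCAFG00000029087 was intermediate, at 18.03, 13.7 and 13.8 CPM, and differed from both vessels (adjusted p = 0.00206 against the aorta and 0.0141 against the vena cava, edgeR). The leading genes were chosen by their aortic and vena cava samples, which enter these comparisons again. The p-values against the vena porta are therefore a description and not independent tests.

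**Figure D5:**
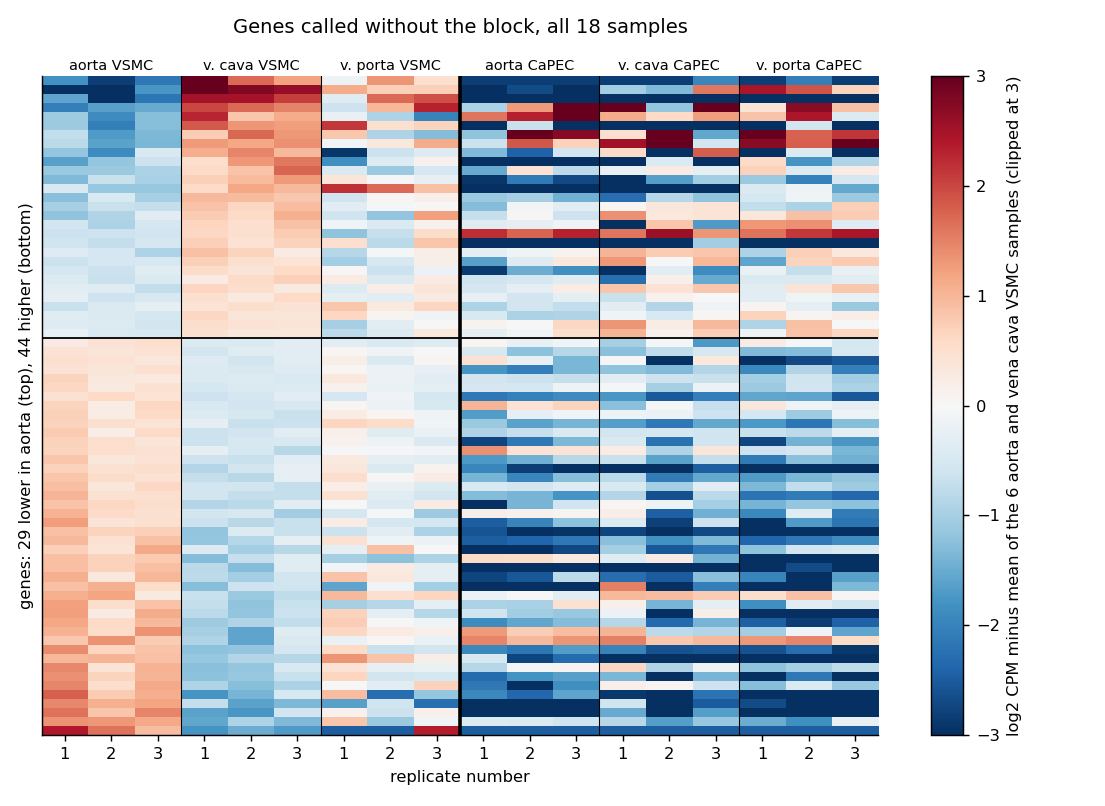
Level of the 73 genes called without the block (rows, ordered by fold change) in all 18 samples (columns, by cell type, vessel and replicate), as log2 CPM minus the mean of the 6 aortic and vena cava VSMC samples, with the colour clipped at 3. The vena porta VSMCs are mostly paler than either vessel, in 41 of the 44 higher and 26 of the 29 lower genes with a mean between them, and in CaPECs 20 of the 42 higher and 18 of the 24 lower genes tested had the VSMC direction.

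The same vessels were compared in CaPECs, which share no sample with the VSMCs. There edgeR called 57 of 11408 genes without the block (0.5%), of which 44 were higher (0.386%) and 13 lower (0.114%) in the aorta. Of these, 50 were also tested in VSMCs, and 0 were among the 73 genes of VSMCs, a list that holds 0.649% of the genes tested, so the 2 lists are too short for this to be read. Among the 682 were 8 of them, which are 16% of the 50 tested and 1.17% of the 682, where 6.06% of all genes were called, and 6 of the 8 had the same direction in both cell types. Of the 44 genes higher in aortic VSMCs, 42 were tested in CaPECs, where 20 were also higher in the aorta and 22 were not, with a median log2 fold change of -0.04. Of the 29 lower in aortic VSMCs, 24 were tested and 18 were also lower in aortic CaPECs, with a median of -0.65, while 52.9% of all genes tested in both cell types were lower there.

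The 682 genes called with the block include these 73. Of the 413 higher genes, 383 were tested in CaPECs and 185 were also higher in the aorta (48.3%), beside 47.1% of all genes tested in both cell types. Of the 269 lower genes, 248 were tested and 158 were also lower (63.7%), beside 52.9% of all. The spread between CaPEC samples was wider, with a biological coefficient of variation of 0.408. With the number as a block, 1 gene was called in CaPECs, and it was higher in the aorta (0.00877%). Same-numbered CaPEC samples of the aorta and vena cava had correlations of -0.15, -0.02 and 0.23 in their deviations from the group means.

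The level in VSMCs was above that in CaPECs for 39 of the 44 (88.6%) and 341 of the 413 (82.6%) genes higher in the aorta, against 51.6% of all genes tested. The VSMC level includes the aortic samples in which these genes were chosen to be high. For the 44 genes the median was 6.80 in aortic and 5.36 in vena cava VSMCs, beside 5.27 and 5.20 in CaPECs of the same vessels (log2 CPM). Of the genes lower in the aorta, 18 of the 29 (62.1%) and 138 of the 269 (51.3%) had the higher level in VSMCs. These levels are means over the aorta and vena cava samples of each cell type, which were grown in different media.

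Whether a vessel difference was itself different between the cell types was tested as an interaction over the 12 samples of both vessels. By edgeR, with an adjusted p-value under 0.05, the interaction was called in 63 of 12035 genes (0.523%), and in 44 with the block (0.366%). The interaction contains the VSMC difference by which the VSMC lists were chosen, which favours calls among their genes. It was called in 3 of the 44 higher and 1 of the 29 lower genes of VSMCs. Of the 413 and 269 genes called with the block, 12 and 9 had an interaction without the block, and 9 and 10 with it. For the other genes, a difference between VSMCs and CaPECs was not shown.

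None of the 4 leading genes passed this test (0 genes). ENSCAFG00000002500 was at 43.9 to 66.2 CPM in aortic and 32.2 to 90.2 CPM in vena cava CaPECs, which overlapped, and its interaction was 1.97 (log2, adjusted p = 0.0795 from edgeR). ENSCAFG00000029087 was at no more than 1.13 CPM in aortic CaPECs and at 3.89, 3.21 and 25.0 CPM in those of the vena cava, which lay above the aorta in both cell types. Its fold change in CaPECs was -4.18 (log2, standard error 1.24, adjusted p = 0.177 from edgeR), and the interaction had an adjusted p of 0.648. ENSCAFG00000016116 was at 1.45 to 7.74 CPM in aortic and 0.59 to 0.83 CPM in vena cava CaPECs. Its fold change there was 2.38 (log2, standard error 0.78, adjusted p = 0.203 from edgeR). The interaction of ENSCAFG00000016116 was -0.45 (log2, adjusted p = 0.81 from edgeR). ENSCAFG00000018598 was read in CaPECs mainly in aorta 2, at 25.2 CPM, and vena porta 2, at 27.1 CPM. It was at 0.28 CPM (3 counts) in vena cava 2, and at most at 0.34 CPM in all CaPEC samples but aorta 2 and vena porta 2.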

How the data were processed

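The authors aligned single-end reads of directional poly(A) libraries to CanFam3.1 with STAR 2.4.2a and used HTSeq-count 0.6.1p1 in union mode for counting. The authors deposited the raw counts of each gene as they were. The annotation release and the strand setting are not given in the sources used here. From these counts, edgeR 4.0.16 in R 4.3.3 was used with TMM normalization, filterByExpr (minimum count 10), glmQLFit and glmQLFTest, with Benjamini-Hochberg adjustment over all genes tested. DESeq2 1.42.0 and limma 3.58.1 were alternatives. Standard errors were derived from the F statistic. Log2 CPM used a prior count of 2. Per-sample CPM were scaled over all 18 samples. The fits were tested on simulated data.

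Groups and numbers were taken from the sample titles. The sources name 3 donors for all vessels but do not tie a number to a donor, so p-values measure the spread between these samples. Same-numbered aortic and vena cava VSMC samples deviated together from their group means (correlations across genes of 0.27, 0.41 and 0.53), so the numbers were taken as pairs. The CaPEC columns carry other numbers and were blocked separately. The leading genes are the 2 in each direction with the smallest p-value among those past the thresholds without overlap. Gene lists by symbol were not used. The members, although set by labels, and the lists were chosen with earlier results of these data known.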

Additional observations from a re-analysis of the deposited data

Results flagged for a closer look

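The vessel difference was different between VSMCs and CaPECs in 63 genes by the interaction test of edgeR, 24 with the more positive difference in VSMCs and 39 with the more negative. Of the 61 genes tested within each cell type, 45 had opposite directions in the cell types, which the choice by a gap between the fold changes favours, whereas 53.5% of all genes tested in both cell types had the same direction. Of the 61, 5 were larger in size in VSMCs. Among the 63 were 4 of the 73 genes called in VSMCs without the block, 21 of the 682 called with it and 28 of the 57 called in CaPECs. These lists were chosen on samples that the interaction test also uses, which favours the overlap. Leaving out vena cava CaPEC 2 gave 906 genes, leaving out aortic CaPEC 1 gave 25, vena cava CaPEC 1 gave 34, aortic CaPEC 3 gave 38, and leaving out any single VSMC sample gave 15 to 34.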

How the results depend on the processing

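The number of genes called between aortic and vena cava VSMCs without the block (73) was 682 with the replicate number as a block, 385 with DESeq2's Wald test, 714 with DESeq2 and the block, and 163 in edgeR without a filter on low counts. DESeq2 was given all 15521 genes with a count (16440 for the interaction), so both the test and the filter differ there. It ranged from 0 to 52 with single samples left out, and from 0 to 17 with a number left out, where edgeR called 0 genes without number 1 (649 at an unadjusted p-value below 0.05) and 0 without number 2 (1275). With size factors as in DESeq2 it was 75, and with at least 1 CPM in every sample 91. In the fit over all 9 VSMC samples it was 57. With the block, the number (682) was 73 without it, 1092 without the filter, and 354 to 1104 with a number left out. Library size alone and thinning to the smallest total, chosen after the data were seen, gave 70 and 87 genes without the block and 983 and 649 with it, and library size alone turned the split between higher and lower. The number of genes with an interaction (63) was 44 with the replicate block, 26 of them shared, 462 with DESeq2, 587 with DESeq2 and the block, 36 with limma's quality-weighted voom, and 103 in a fit over all 18 samples. It ranged from 15 to 906 with single samples left out and from 0 to 208 with a number left out, where edgeR called 0 genes without number 1 (707 at an unadjusted p-value below 0.05). The causes of these changes were not tested. Each of the 4 leading genes, whose direction under samples left out is fixed by the lack of overlap, lost its call in 3 to 7 of the 18 or 19 alternatives run for it, with adjusted p-values of up to 0.334 and log2 fold changes of 1.59 to 1.95 (ENSCAFG00000002500), 1.76 to 2.04 (ENSCAFG00000016116), -6.88 to -5.32 (ENSCAFG00000029087) and -3.17 to -2.71 (ENSCAFG00000018598). Of the genes listed, 9059 had no count in any of the 6 samples, and nothing can be said of them at this depth.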

Other observations

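The 6 samples also differed by number. With the vessel in the model, 598 of the 11254 genes differed between the numbers by edgeR, with an adjusted p-value under 0.05 (5.31%). Of these, 128 were also among the 682 genes that differed between the vessels with the block, which are 21.4% of the first list and 18.8% of the second. Of the 73 genes called without the block, 3 were among the 598 (4.11%), beside 5.31% of all genes tested. Spread between numbers counts as error in the fit without the block. The number and vessel tests with the block share the same residual spread. Both can shape these overlaps, which are a description only.

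In the 500 most variable genes, the number accounted for 53.9% of the variance, the vessel for 32.8% and the rest for 13.3%. The number has 2 degrees of freedom and the vessel 1, and per degree of freedom the number accounted for 27.0%. On the first principal component, with 44.7% of the variance, the lowest sample of each vessel was number 3, at -11.6 in the aorta and -36.3 in the vena cava. On the second, with 28.6%, the aortic samples lay at 14.9, 5.51 and 21.6 and the vena cava samples at -18.6, -24.5 and 0.98. The root mean square difference between samples over all genes tested was 0.636 to 0.685 (log2) for the 3 pairs of the same number and different vessel, 0.586 to 0.769 for the 6 of the same vessel, and 0.735 to 0.906 for the 6 that shared neither. Aorta 3 was nearest to aorta 1 (0.616), followed by vena cava 3 (0.636), vena cava 1 (0.746) and aorta 2 (0.763).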
